A study of Mus musculus with 15 samples.

Results

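Medullary neuropeptide genes are the 10 genes Sst, Npy, Gal, Cartpt, Crh, Tac1, Penk, Pdyn, Nts and Adcyap1, picked by gene symbol from the raw gene count table. They are 10 of the 55421 genes in that table and 10 of the 14852 protein-coding genes that were tested, since all 10 passed the filter on low values (over 1 CPM, counts per 1000000 counts, in at least 1 library). RNA was sequenced in bulk from bilateral punches of the rostral ventrolateral medulla (RVLM) in 15 libraries. All mice carried floxed atp6ap2, the X-linked gene of the prorenin receptor (PRR), and received a virus in the RVLM that drives its cargo from a CMV promoter in any cell type it enters. PRR RVLM-Null DOCA-salt mice (n = 3, labelled PRRf/f) received AAV-CRE-GFP and WT DOCA-salt mice (n = 4, labelled PRRf/f) received AAV-GFP. Both then had a 50 mg deoxycorticosterone acetate (DOCA) pellet and 0.15 M NaCl as their only drinking fluid for 13 days. PRR RVLM-Null baseline mice (n = 4, labelled PRRf/y) received AAV-CRE-GFP and WT baseline mice (n = 4, labelled PRRf/y) received AAV-GFP, with no DOCA-salt and with tissue taken 3 weeks after the virus. The DOCA-salt and baseline mice were separate cohorts. In the paper's protocol DOCA-salt began at least 3 weeks after the virus, so time since the virus also differs. DOCA-salt, cohort and time since the virus thus cannot be told apart. The ages of the mice are not in the labels, and the punches can hold tissue next to the RVLM.

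Neuropeptides are cut from larger precursor proteins, packed into dense-core granules and released beside fast transmitters, and they act through G protein-coupled receptors. The RVLM holds the C1 adrenergic neurons, which drive sympathetic outflow and carry peptides such as neuropeptide Y (Npy) and CART (Cartpt) beside their catecholamines. Somatostatin (Sst) and the enkephalins (from Penk) act mostly through receptors that quiet neurons, and somatostatin lowers blood pressure when it is applied to the RVLM. In bulk tissue, fewer cells of a type and less RNA per cell cannot be told apart.

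Library totals lay between 19053970 and 30504796 counts. Mitochondrial ribosomal RNA took 20.3% to 28.8% of the counts at baseline and 2.42% to 5.84% under DOCA-salt, except 19.1% in the library labelled replicate 3 of PRR RVLM-Null DOCA-salt. Atp6ap2, the targeted gene, measured 90.2, 89.6 and 145 CPM in PRR RVLM-Null DOCA-salt libraries 1 to 3, against 142, 134, 154 and 144 CPM in WT DOCA-salt libraries. It measured 106, 119.9, 123 and 126 CPM in PRR RVLM-Null baseline libraries, against 114, 123, 117 and 139 CPM in WT baseline libraries. In mitochondrial ribosomal RNA and Atp6ap2 the library labelled replicate 3 of PRR RVLM-Null DOCA-salt thus goes against its label. The baseline groups overlap in Atp6ap2. Counts of Xist and Y-linked genes gave 9 libraries a female and 6 a male pattern, although the protocol describes female mice. The paper uses PRRf/y, the label of both baseline groups, for hemizygous males. Yet 3 WT baseline and 2 PRR RVLM-Null baseline libraries had a female pattern. Each of the 4 groups held both patterns. The male pattern was found in WT DOCA-salt replicate 3, WT baseline replicate 4 and PRR RVLM-Null baseline replicates 3 and 4. It was also found in PRR RVLM-Null DOCA-salt replicates 1 and 2. By sex pattern those libraries thus go against the protocol and replicate 3 does not. CPM here are scaled over the genes tested after edgeR's TMM scaling.

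On GRCm38 (Gencode vM21), Sst lies at chr16:23889573-23890958 on the minus strand, Penk at chr4:4133531-4138819 on the minus strand and Pdyn at chr2:129686565-129699844 on the minus strand. Npy lies at chr6:49822710-49829507 (plus), Cartpt at chr13:99898489-99901091 (minus), Gal at chr19:3409915-3414544 (minus) and Adcyap1 at chr17:93199017-93206537 (plus). Tac1 lies at chr6:7554879-7565834 (plus), Crh at chr3:19693401-19695396 (minus) and Nts at chr10:102481756-102490486 (minus). Penk is the exception in that an annotated noncoding gene on the opposite strand, A830012C17Rik, overlaps it. How strand was used in counting is not given in the sources used here, so reads of this pair may not be separated.

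Promoter sequence of the RefSeq table (GRCm38.p6, 250 bases before the annotated start) was matched for 8 of the 10 genes, without Crh and Penk. RefSeq and Gencode starts differ for some genes, and distances here are from the RefSeq start. Of the windows printed below, that of Cartpt lies inside the Gencode gene given above and those of Sst and Tac1 lie partly inside theirs. Sst and Cartpt are shown because their rise in WT mice held under every alternative run, Gal because it rose in both DOCA-salt comparisons, and Tac1 for its low values in PRR RVLM-Null DOCA-salt libraries. Capitals mark the cAMP response element TGACGTCA, its core TGACG on either strand, and the steroid receptor half-site AGAACA on either strand. The full element stood in the Sst window, from 48 bases before the start, and in the Cartpt window, from 112 bases before the start, and in 1.55% of all 32851 promoter windows of this length. The core was present in Sst, Cartpt, Tac1, Nts and both windows of Adcyap1, which overlap and share the same site, and in 17.8% of all windows. The core lies inside the full element on both strands, so both matches overlap there. The half-site was in none of the 10 windows of the matched genes and in 16.1% of all windows. A match is a run of letters and not a measured binding site.
Sst, chr16:23890845-23891094, minus strand: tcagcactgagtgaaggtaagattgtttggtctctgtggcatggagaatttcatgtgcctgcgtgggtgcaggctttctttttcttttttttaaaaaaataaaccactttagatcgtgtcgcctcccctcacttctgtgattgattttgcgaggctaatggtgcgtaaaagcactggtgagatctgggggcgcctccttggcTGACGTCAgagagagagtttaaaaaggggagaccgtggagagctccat
Cartpt, chr13:99900684-99900933, minus strand: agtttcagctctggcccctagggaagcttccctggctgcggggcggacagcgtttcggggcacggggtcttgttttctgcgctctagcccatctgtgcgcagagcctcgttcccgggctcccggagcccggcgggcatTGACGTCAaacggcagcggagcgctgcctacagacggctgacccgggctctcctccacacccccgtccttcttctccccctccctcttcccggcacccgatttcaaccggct
Gal, chr19:3414545-3414794, minus strand: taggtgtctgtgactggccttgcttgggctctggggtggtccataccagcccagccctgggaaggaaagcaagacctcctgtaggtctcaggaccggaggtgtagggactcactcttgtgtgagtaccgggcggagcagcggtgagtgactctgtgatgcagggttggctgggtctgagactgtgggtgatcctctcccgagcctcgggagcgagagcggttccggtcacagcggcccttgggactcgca
Tac1, chr6:7554811-7555060, plus strand: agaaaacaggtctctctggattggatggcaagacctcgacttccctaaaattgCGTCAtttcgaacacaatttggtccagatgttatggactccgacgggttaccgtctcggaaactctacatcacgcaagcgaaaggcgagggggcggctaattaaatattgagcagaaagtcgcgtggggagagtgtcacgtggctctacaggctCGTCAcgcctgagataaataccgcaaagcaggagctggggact

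Per kilobase of gene length, Sst and Penk stood far above the other members in every group. Mean Penk was 90.0 CPM per kb in PRR RVLM-Null DOCA-salt libraries, 234 in WT DOCA-salt, 109 in PRR RVLM-Null baseline and 77.4 in WT baseline libraries. Mean Sst was 62.6, 241, 69.5 and 47.0 CPM per kb in the same order of groups. In WT DOCA-salt libraries Sst ranked 73rd and Penk 78th of the 14852 genes by mean CPM per kb, against 864th and 422nd in WT baseline libraries. The other 8 members had group means between 0.758 and 19.1 CPM per kb, with Pdyn lowest in both WT groups and Tac1 lowest in PRR RVLM-Null DOCA-salt libraries. Together the 10 members summed to 155, 131 and 430 CPM in PRR RVLM-Null DOCA-salt libraries 1 to 3 and to 526, 794, 827 and 526 CPM in WT DOCA-salt libraries. They summed to 261, 177, 270 and 417 CPM in PRR RVLM-Null baseline and to 114, 227, 177 and 295 CPM in WT baseline libraries. The 4 WT DOCA-salt libraries thus lay above the other 11.

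**Figure D1:**
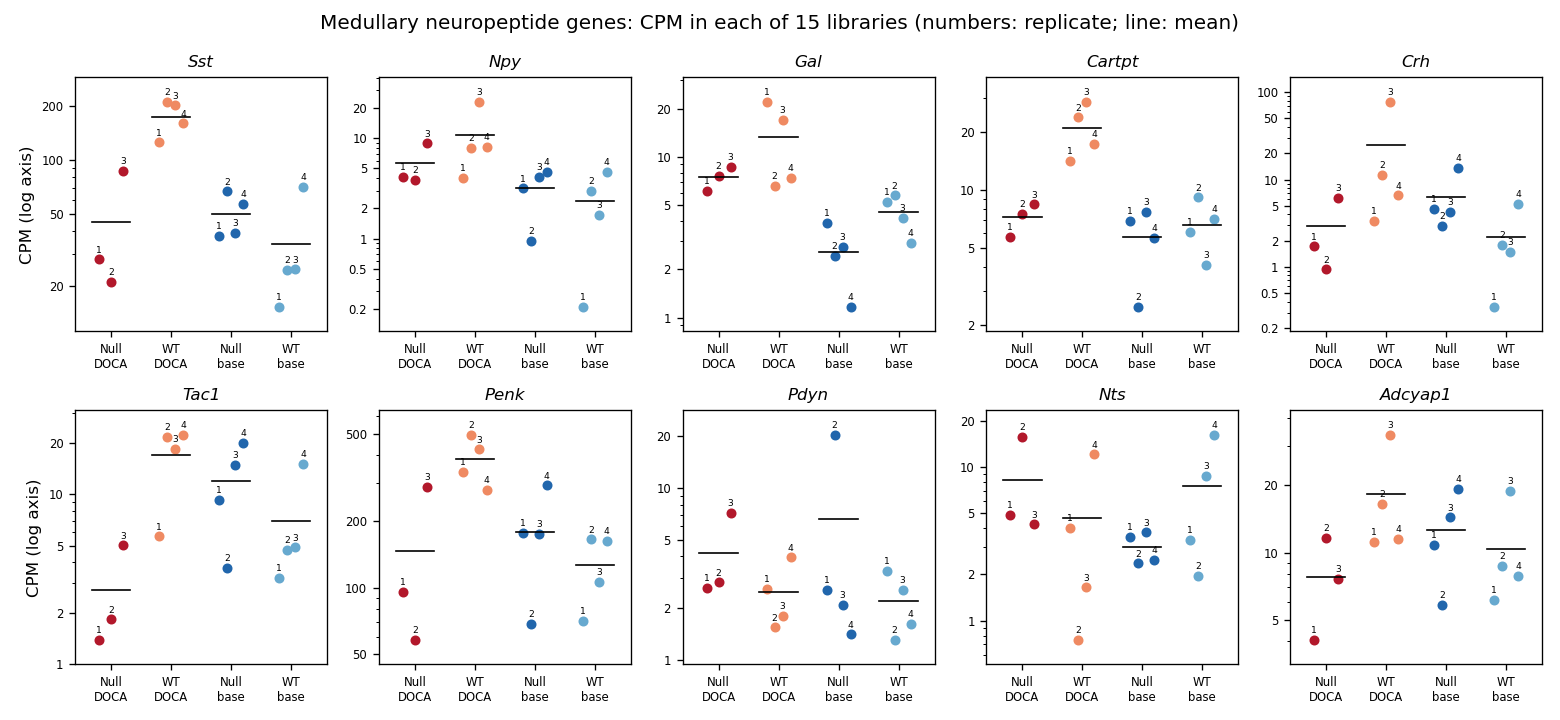
CPM of the 10 neuropeptide genes (log axes) in each library, with the replicate number beside each point and a line at the group mean, for PRR RVLM-Null DOCA-salt (Null DOCA), WT DOCA-salt, PRR RVLM-Null baseline (Null base) and WT baseline. The 4 WT DOCA-salt libraries sit above all other libraries for Sst (125 to 209.8 CPM) and Cartpt (14.2 to 28.8 CPM), while Pdyn overlaps between all 4 groups.

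The first comparison asked how the peptide genes stood in WT mice after 13 days of DOCA-salt. Sst, Npy, Gal, Cartpt, Crh and Penk were higher in WT DOCA-salt than in WT baseline libraries, by 2.92-fold to 11.3-fold. No member was called lower, and Tac1, Adcyap1, Pdyn and Nts did not pass the test. A gene was called at an adjusted p (edgeR quasi-likelihood test, Benjamini-Hochberg over all genes tested) of at most 0.05 with at least a 2-fold difference. Thus 6 of 10 members were called higher and 0 lower, against 1.47% of all genes called higher and 0.707% called lower. The median log2 fold change was 1.57 over the members and -0.00092 over all genes tested. For 4 of 10 members the groups did not overlap, as for 18.6% of all genes. The labels do not say that the replicates of a group are separate mice, so the p-values measure the spread between these libraries, which may be technical in part. Both sex patterns occurred in each group, so no group came from 1 mouse alone.

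Among peptides whose receptors mostly inhibit neurons, Sst measured 125, 209.8, 201 and 159 CPM in WT DOCA-salt libraries, against 15.2, 24.5, 24.7 and 71.0 CPM in WT baseline libraries. The groups did not overlap, and WT baseline replicate 4 was the high one of its group. Sst was 5.14-fold higher (log2 fold change 2.36, SE 0.46, adjusted p = 0.00556 by edgeR). Penk, the enkephalin precursor, measured 334, 494, 424 and 278 CPM in WT DOCA-salt libraries, against 70.8, 166, 106 and 163 CPM in WT baseline libraries. Every WT DOCA-salt library again lay above every WT baseline library, a 3.03-fold difference (log2 1.60, SE 0.46, adjusted p = 0.0344 by edgeR). Pdyn, the dynorphin precursor, measured 1.54 to 3.95 CPM in WT DOCA-salt and 1.30 to 3.29 CPM in WT baseline libraries, with overlapping groups (log2 0.17, SE 0.72).

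Among peptides known from catecholaminergic neurons of the brainstem, Cartpt measured 14.2, 23.9, 28.8 and 17.4 CPM in WT DOCA-salt libraries, against 6.08, 9.21, 4.12 and 7.13 CPM in WT baseline libraries. Its groups did not overlap, and it was 3.18-fold higher with the smallest adjusted p of the members (log2 1.67, SE 0.31, adjusted p = 0.00397 by edgeR). Gal, the galanin precursor, measured 22.1, 6.59, 17.1 and 7.40 CPM in WT DOCA-salt libraries, against 5.24, 5.78, 4.20 and 2.92 CPM in WT baseline libraries. Replicates 1 and 3 of WT DOCA-salt were high and replicates 2 and 4 lay just above the baseline range. The difference was 2.92-fold (log2 1.55, SE 0.38, adjusted p = 0.0170 by edgeR). Npy measured 4.02, 8.01, 23.1 and 8.24 CPM in WT DOCA-salt libraries, against 0.210, 3.01, 1.72 and 4.62 CPM in WT baseline libraries. These groups overlapped, WT DOCA-salt replicate 3 was high, and Npy was 4.59-fold higher (log2 2.20, SE 0.65, adjusted p = 0.0388 by edgeR). Adcyap1, which encodes the peptide PACAP, measured 11.2, 16.5, 33.7 and 11.6 CPM in WT DOCA-salt against 6.15, 8.72, 18.9 and 7.86 CPM in WT baseline libraries (log2 0.81, SE 0.44, adjusted p = 0.246 by edgeR).

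Crh, the precursor of corticotropin-releasing hormone, measured 3.36, 11.4, 77.6 and 6.60 CPM in WT DOCA-salt libraries, against 0.349, 1.79, 1.499 and 5.27 CPM in WT baseline libraries. WT DOCA-salt replicate 3 held most of the group's sum and the groups overlapped. The 11.3-fold difference was the largest of the members and had the largest error (log2 3.50, SE 0.98, adjusted p = 0.0313 by edgeR). Tac1, the precursor of substance P, measured 5.66, 21.8, 18.5 and 22.4 CPM in WT DOCA-salt libraries, against 3.22, 4.72, 4.87 and 15.1 CPM in WT baseline libraries. The groups overlapped through WT DOCA-salt replicate 1 and WT baseline replicate 4, and Tac1 did not pass the test (log2 1.30, SE 0.57, adjusted p = 0.146 by edgeR). Nts, the neurotensin precursor, was the 1 member with a negative value (log2 -0.70, SE 0.71), with 0.751 to 12.1 CPM in WT DOCA-salt and 1.96 to 16.2 CPM in WT baseline libraries.

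Single libraries carried part of this count. Without WT DOCA-salt replicate 3 it was 2 (Sst and Cartpt), with Crh at a log2 fold change of 1.70 (adjusted p = 0.194 by edgeR) and Npy at 1.52 (adjusted p = 0.158). Without WT baseline replicate 1, 2 or 3 it was 3 each time (Sst, Gal and Cartpt).

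**Figure D2:**
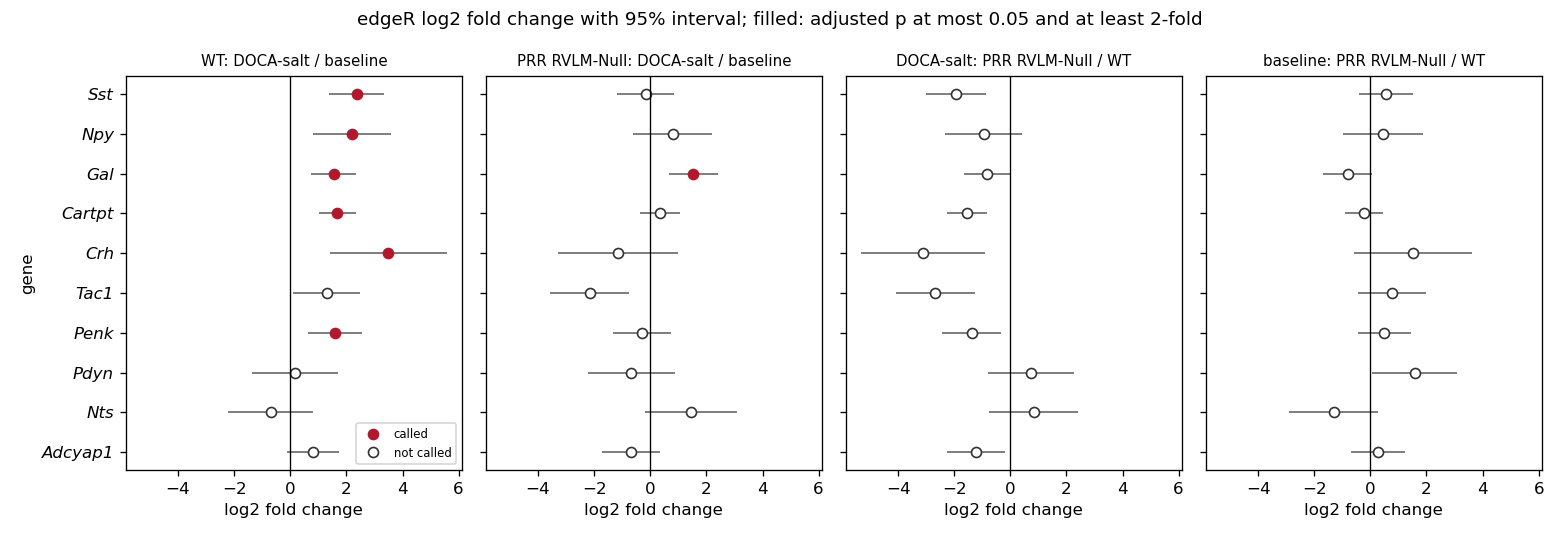
Log2 fold change (points) and its 95% interval (lines) for the 10 genes in 4 comparisons by edgeR over 15 libraries, with filled points where the adjusted p was at most 0.05 and the difference at least 2-fold. In WT mice 6 genes are filled, in PRR RVLM-Null mice Gal alone, and neither comparison of PRR RVLM-Null with WT mice has a filled point.

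The second comparison asked the same of mice given Cre virus. Atp6ap2 in its baseline libraries (106 to 126 CPM) overlapped that of WT baseline libraries (114 to 139 CPM). The paper presumes that too little time had passed at baseline for full loss of this mRNA. Gal alone was called, and higher, in PRR RVLM-Null DOCA-salt against PRR RVLM-Null baseline libraries, so that 1 of 10 members was called higher and 0 lower, against 1.14% of all genes called higher and 0.444% called lower. Galanin is a peptide that slows many of the neurons it reaches. Gal measured 6.15, 7.67 and 8.69 CPM in PRR RVLM-Null DOCA-salt libraries, against 3.88, 2.43, 2.77 and 1.17 CPM in PRR RVLM-Null baseline libraries. The groups did not overlap, and the difference was 2.89-fold (log2 1.53, SE 0.42, adjusted p = 0.0400 by edgeR). The median over the members was -0.22 on the log2 scale, against 0.022 over all genes tested.

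Tac1 measured 1.39, 1.84 and 5.02 CPM in PRR RVLM-Null DOCA-salt libraries, against 9.29, 3.71, 14.96 and 20.04 CPM in PRR RVLM-Null baseline libraries. The groups overlapped through PRR RVLM-Null baseline replicate 2, and the difference missed the threshold (log2 -2.16, SE 0.66, adjusted p = 0.0615 by edgeR). Nts measured 4.88, 15.7 and 4.23 CPM in PRR RVLM-Null DOCA-salt libraries, against 3.50, 2.36, 3.76 and 2.50 CPM in PRR RVLM-Null baseline libraries. Nts did not overlap between the groups but did not pass the test across genes (log2 1.45, SE 0.78, adjusted p = 0.254 by edgeR). For Nts the exact two-sided permutation test gave p = 0.0286, the smallest that 3 against 4 libraries allow. Gal and Nts were 2 of 10 members without overlap, a share near the 20.5% of all genes that did not overlap in this comparison.

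Sst measured 27.9, 21.0 and 86.6 CPM in PRR RVLM-Null DOCA-salt libraries, against 37.9, 66.8, 39.1 and 56.7 CPM in PRR RVLM-Null baseline libraries. Replicates 1 and 2 lay below the baseline range and the library labelled replicate 3 above it (log2 -0.16, SE 0.48). Penk had the same order, with 96.2, 58.1 and 287 CPM in PRR RVLM-Null DOCA-salt against 178, 68.7, 176 and 292 CPM in PRR RVLM-Null baseline libraries, although these groups overlapped (log2 -0.28, SE 0.49). Cartpt measured 5.74, 7.55 and 8.46 CPM in PRR RVLM-Null DOCA-salt against 6.93, 2.49, 7.76 and 5.69 CPM in PRR RVLM-Null baseline libraries (log2 0.34, SE 0.33). These 3 genes, called in WT mice, had intervals on both sides of 0 here, from -1.18 to 0.86 for Sst, from -1.31 to 0.75 for Penk and from -0.37 to 1.05 for Cartpt.

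The other members also missed the threshold. Npy ranged over 3.87 to 8.91 CPM in PRR RVLM-Null DOCA-salt and 0.958 to 4.601 CPM in PRR RVLM-Null baseline libraries, and Crh over 0.939 to 6.21 and 2.94 to 13.7 CPM. Adcyap1 ranged over 4.06 to 11.6 CPM in PRR RVLM-Null DOCA-salt and 5.81 to 19.3 CPM in PRR RVLM-Null baseline libraries, and Pdyn over 2.63 to 7.17 and 1.40 to 20.4 CPM. All 4 overlapped between groups. The call for Gal was lost without PRR RVLM-Null DOCA-salt replicate 1 or 2, PRR RVLM-Null baseline replicate 3 or 4, or WT baseline replicate 1 or 2, which leaves 0 calls. A fit without the library labelled replicate 3 of PRR RVLM-Null DOCA-salt kept 2 libraries of that group, both of male pattern. There Gal had an adjusted p of 0.0647 (log2 1.42) and Tac1 was the 1 member called (log2 -2.87, adjusted p = 0.0314 by edgeR). Leaving out PRR RVLM-Null baseline replicate 2 likewise put Tac1 in place of Gal (Tac1 adjusted p = 0.0462). Tac1 joined Gal, for 2 calls, without WT baseline replicate 4 or WT DOCA-salt replicate 1. Over all genes, the fits with 1 library left out called 70 to 337, against 236 with every library.

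The third comparison asked how PRR RVLM-Null and WT mice differed under DOCA-salt. Sst, Cartpt and Tac1 had lower values in every PRR RVLM-Null DOCA-salt library than in any WT DOCA-salt library. With all 15 libraries none of the 10 members was called in either direction by edgeR. The background was as low, with 0% of all genes called higher and 0.00673% called lower. At an unadjusted p under 0.05 there were 6 members (Sst, Cartpt, Crh, Tac1, Penk and Adcyap1), all lower in PRR RVLM-Null, against 14.4% of all genes in either direction. DESeq2 called 3 members (Sst, Cartpt and Tac1), and limma voom called 0. Over all genes the full edgeR fit called 1, and the alternatives, DESeq2 among them, called 0 to 227. The median of the members was -1.31 on the log2 scale, against 0.025 over all genes tested, and 8.73% of all genes had groups that did not overlap.

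Cartpt averaged 7.25 ± 1.38 CPM in PRR RVLM-Null DOCA-salt libraries (SD, n = 3) and 21.1 ± 6.53 CPM in WT DOCA-salt libraries (SD, n = 4). It had a log2 difference of -1.54 (SE 0.33, 95% interval -2.25 to -0.83, adjusted p = 0.0852 by edgeR). Tac1 averaged 2.75 ± 1.98 CPM in PRR RVLM-Null DOCA-salt and 17.1 ± 7.81 CPM in WT DOCA-salt libraries (log2 -2.67, SE 0.67, 95% interval -4.09 to -1.26, adjusted p = 0.140). Sst averaged 45.2 ± 36.0 CPM in PRR RVLM-Null DOCA-salt and 174 ± 39.4 CPM in WT DOCA-salt libraries (log2 -1.95, SE 0.50, adjusted p = 0.145). The exact two-sided permutation test gave p = 0.0286 for Sst and for Cartpt, the smallest possible here, and p = 0.0571 for Tac1.

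Penk (log2 -1.38, SE 0.50), Crh (-3.12, SE 1.04) and Adcyap1 (-1.23, SE 0.49) had 95% intervals below 0 but overlapping groups. The intervals of Npy (-2.33 to 0.42), Gal (-1.66 to 0.011), Pdyn (-0.79 to 2.29) and Nts (-0.75 to 2.42) held 0. The library labelled replicate 3 of PRR RVLM-Null DOCA-salt, whose Atp6ap2 level lay in the WT range, was also the highest of its group for 7 of the other 9 members beside Sst (all but Nts and Adcyap1). Without it, Sst (log2 -2.83, adjusted p = 0.0191 by edgeR) and Penk (log2 -2.31, adjusted p = 0.0355) were called, for 2 calls. That fit set 2 PRR RVLM-Null DOCA-salt libraries, both of male pattern, against WT DOCA-salt libraries with 3 of female and 1 of male pattern. Virus and sex pattern thus differed together there. Over all genes, the fits with 1 library left out called 0 to 75.

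At baseline the comparison of PRR RVLM-Null with WT mice called 0 of 10 members, as it called 0% of all genes in either direction, by edgeR and by every alternative run. At an unadjusted p under 0.05 there was 1 member of 10, Pdyn, against 10.1% of all genes. Pdyn had 2.54, 20.4, 2.09 and 1.40 CPM in PRR RVLM-Null baseline and 3.29, 1.30, 2.55 and 1.62 CPM in WT baseline libraries. PRR RVLM-Null baseline replicate 2, with 320 counts of Pdyn, made that difference. The log2 value of Pdyn was 1.59 with this library and -0.11 without it. All 10 members overlapped between these groups, with log2 values from -1.31 (Nts) to 1.59 (Pdyn).

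The difference between the DOCA-salt responses (PRR RVLM-Null minus WT) was tested as an interaction. It was negative for 9 of 10 members, with a median of -1.45 against 0.037 over all genes tested. No member passed, with 0 higher and 0 lower by edgeR, against 0.00673% and 0.323% of all genes. Tac1 had the smallest adjusted p (-3.46 on the log2 scale, SE 0.87, adjusted p = 0.0746), followed by Sst (-2.52, SE 0.67, adjusted p = 0.0886) and Crh (-4.64, SE 1.42, adjusted p = 0.127). For Gal the difference was -0.016 (SE 0.60, 95% interval -1.29 to 1.26), a width that leaves room for an equal or a more than 2-fold different response. At an unadjusted p under 0.05 there were 6 members, against 16.8% of all genes, DESeq2 called 3 (Sst, Crh and Tac1) and limma voom 1 (Sst). A fit without the library labelled replicate 3 of PRR RVLM-Null DOCA-salt kept 2 libraries of that group, both of male pattern. It called 3 members by edgeR (Sst, Tac1 and Penk). Without WT baseline replicate 4 there were 2 (Sst and Tac1) and without WT DOCA-salt replicate 1 there was 1 (Tac1). Over all genes the full edgeR fit called 49. The fits with 1 library left out called 0 to 207 and the other alternatives 44 to 406.

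Other genes of the peptide systems were read from lists. Of 46 other neuropeptide precursors, 22 were tested, and 2 were higher and 0 lower in WT DOCA-salt than in WT baseline libraries (median log2 0.37). Trh, the precursor of thyrotropin-releasing hormone, ranged over 21.7 to 309 CPM in WT DOCA-salt and 0 to 0.324 CPM in WT baseline libraries (adjusted p = 0.000824 by edgeR). Its highest WT baseline library held 4 counts, so the fitted fold is not given. Trh stood at 0.492 to 5.02 CPM in PRR RVLM-Null DOCA-salt libraries, below every WT DOCA-salt library, and at 0 to 2.94 CPM in PRR RVLM-Null baseline libraries. Tac2, the neurokinin B precursor, averaged 2.22 CPM in WT DOCA-salt and 0.18 CPM in WT baseline libraries (adjusted p = 0.0427), with overlap. Edn3, an endothelin precursor, was the 1 gene of this list called in PRR RVLM-Null mice, at 3.16 to 4.51 CPM under DOCA-salt against 5.88 to 47.6 CPM at baseline (log2 -2.60, SE 0.59, adjusted p = 0.0202).

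Of the 16 genes for peptide processing and granules, 1 was higher and 0 lower in WT DOCA-salt against WT baseline libraries. It was Scg2, the granule protein secretogranin II, at 463 to 607 CPM in WT DOCA-salt and 180 to 285 CPM in WT baseline libraries (log2 1.17, SE 0.20, adjusted p = 0.00264 by edgeR). In PRR RVLM-Null mice 1 was lower and 0 higher, Pcsk1, a convertase that cuts precursors, at 3.77 to 11.8 CPM under DOCA-salt against 14.8 to 37.2 CPM at baseline (log2 -1.86, SE 0.46, adjusted p = 0.0292). In the interaction Cadps2, which primes granules for release, was the 1 gene of the list called (log2 -1.64, SE 0.32, adjusted p = 0.0321). It averaged 22.4 CPM in PRR RVLM-Null DOCA-salt against 40.2 CPM in PRR RVLM-Null baseline, and 35.9 CPM in WT DOCA-salt against 20.7 CPM in WT baseline libraries.

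Of 10 degrading enzymes and binding proteins, Crhbp alone was called in WT mice, at 29.5 to 39.0 CPM in WT DOCA-salt and 1.12 to 9.21 CPM in WT baseline libraries (log2 2.69, SE 0.78, adjusted p = 0.0364 by edgeR). It encodes the protein that binds and holds back corticotropin-releasing hormone, and in PRR RVLM-Null mice edgeR called 0 genes of this list (0 at an unadjusted p under 0.05). Of 26 receptors for the member peptides 22 were tested. None was called higher or lower in WT mice by edgeR (6 at an unadjusted p under 0.05, against 28.1% of all genes), while 2 were lower and 0 higher in PRR RVLM-Null DOCA-salt against PRR RVLM-Null baseline libraries. These were Oprm1, the receptor for enkephalins and endorphin (log2 -1.58, SE 0.31, adjusted p = 0.0104), and Npy2r, a receptor for neuropeptide Y (log2 -1.19, SE 0.22, adjusted p = 0.00979). The 15 genes of the cAMP and CREB pathway had a median of 0.015 in WT mice. Nr4a3, an activity-induced nuclear receptor, was the 1 called there, with 4.02 to 9.97 CPM in WT DOCA-salt against 1.68 to 3.90 CPM in WT baseline libraries (log2 1.36, SE 0.33, adjusted p = 0.0153), and in PRR RVLM-Null mice edgeR called 0 (5 at an unadjusted p under 0.05, against 25.8% of all genes).

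Markers of some neuron types were also higher in WT DOCA-salt libraries. Of 9 markers of C1 neurons 6 were higher and 0 lower in WT DOCA-salt than in WT baseline libraries (median log2 2.13), and their sum was 114 to 195 CPM in WT DOCA-salt against 37.0 to 54.5 CPM in WT baseline libraries. Pnmt, the adrenaline-making enzyme that defines C1 cells, was near 0 throughout, at 0.179 to 1.26 CPM in WT DOCA-salt libraries and at most 0.508 CPM elsewhere. Th, the first enzyme of catecholamine synthesis, measured 6.69 to 14.9 CPM in WT DOCA-salt and 0.899 to 3.01 CPM in WT baseline libraries. Of 8 markers of serotonergic raphe neurons, cells that lie near the midline and carry substance P and TRH, 6 were higher and 0 lower in WT DOCA-salt libraries (median log2 1.83). Their sum was 192 to 322 CPM in WT DOCA-salt against 27.2 to 50.2 CPM in WT baseline libraries, with no overlap. Of 5 markers of GABAergic and glycinergic neurons, 2 were higher (Gad1 and Gad2), with a sum of 1342 to 2113 CPM in WT DOCA-salt against 773 to 1165 CPM in WT baseline libraries. The part of these cell types in the peptide results was not tested.

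In PRR RVLM-Null mice the C1 sum was 47.6 to 82.8 CPM under DOCA-salt against 33.9 to 63.3 CPM at baseline, with 1 of 9 called higher. The raphe sum was 39.5 to 156 CPM under DOCA-salt against 48.2 to 84.3 CPM at baseline, with 2 of 8 called higher, and the library labelled replicate 3 held the highest value of both sums. Both sums were thus lower in every PRR RVLM-Null DOCA-salt library than in any WT DOCA-salt library. Inferior olive markers were Foxp2, Htr5b, Hoxb5 and Pou4f1, and Hoxb5 also counts in the Hox sum given below. These markers summed to 279 CPM in WT DOCA-salt replicate 3 and to at most 26.3 CPM in the other 14 libraries. That replicate was the library highest for Crh, Npy, Cartpt and Adcyap1. Motor neuron markers, of which Mnx1 was near 0 throughout, had their lowest sums in PRR RVLM-Null baseline replicate 2 (27.7 CPM), the library high for Pdyn, and in WT DOCA-salt replicates 2 (164 CPM) and 3 (76.4 CPM), against 439 to 1773 CPM in the other 12. In WT mice the 5 tested motor neuron markers all had negative values (median log2 -1.21) and edgeR called 0 of them (0 at an unadjusted p under 0.05). The 3 glutamatergic markers had a median log2 of 1.03 with 0 called (0 at an unadjusted p under 0.05), and the 7 markers of all neurons a median of -0.033 with 1 called higher (Syt1, a synaptic vesicle protein). Red blood cell genes were lower, with 4 of 5 called lower and 0 higher.

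**Figure D3:**
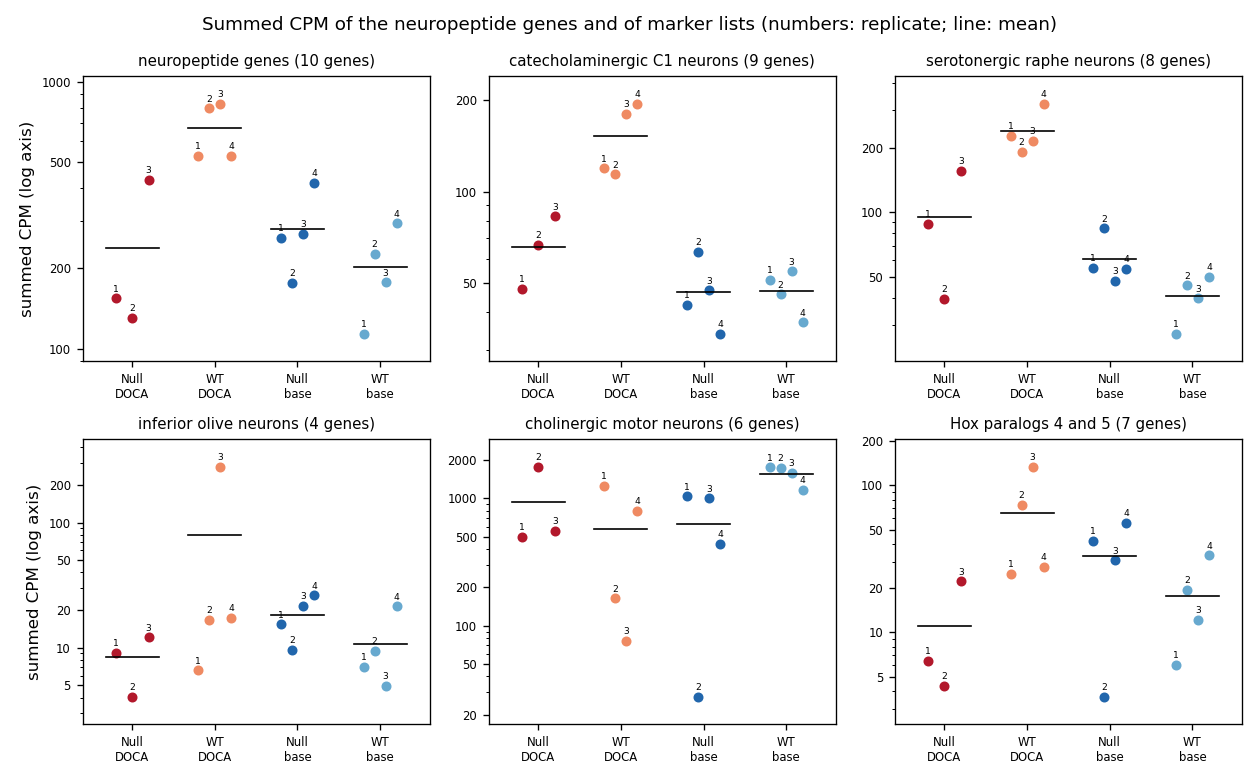
Summed CPM (log axes) of the 10 neuropeptide genes, of 4 marker lists and of the Hox genes of paralog groups 4 and 5 in each library, with replicate numbers and a line at the group mean. Hoxb5 counts in both the inferior olive and the Hox sum. WT DOCA-salt libraries are highest for the peptide, C1 and raphe sums, WT DOCA-salt replicate 3 stands out for inferior olive markers (279 CPM), and PRR RVLM-Null baseline replicate 2 is lowest for motor neuron (27.7 CPM) and Hox (3.64 CPM) sums.

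Within groups, several members varied together. Over the 15 libraries, each set against its own group mean of log2 CPM, Npy and Crh had a Pearson r of 0.86, Npy and Tac1 of 0.75, Tac1 and Penk of 0.73 and Sst and Crh of 0.72, while Cartpt and Pdyn had -0.69. These are descriptions, since members of 1 library share its punch and depth. The genes most like a member were ranked by the same measure among 13949 genes with a mean of at least 1 CPM. How high the top values reach by chance over 15 libraries was not tested. The top genes included Hox genes, which pattern the hindbrain along its length, for 4 members. Hoxa5 (r = 0.92) and Hoxb4 (0.91) led for Npy, Hoxa5 (0.96) for Crh, Hoxc4 (0.96) stood next to Slitrk6 (0.97) for Penk, and Hoxb2 (0.85) and Hoxa4 (0.85) were the first and the third for Cartpt. The genes most like Crh also held Tnfrsf11b (0.95) and Zic1 (0.95).

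Sst was most like Zfp941 (0.98), Pkia (0.97), which encodes an inhibitor of protein kinase A, and the sodium channel subunit gene Scn3b (0.92). Tac1 was most like Ppie (0.91), Peg10 (0.90) and Tmie (0.90), and Pdyn like Onecut2 (0.91), Ppcdc (0.89) and Jam2 (0.84). Nts was most like Rit1 (0.90), Ctso (0.89) and Atp6v0e (0.86), Adcyap1 like Pou4f2 (0.90), Smim14 (0.87) and Rnf185 (0.86), and Gal like Fam110a (0.85), Tmem200c (0.83) and Asph (0.82). Gm45021 (0.90) was the third for Npy, Fhl2 (0.85) the second for Cartpt and Chrnb4 (0.93) the third for Penk.

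After these values were seen, the tested Hox genes of paralog groups 4 and 5 (7 genes), whose expression begins in the caudal hindbrain, were summed. The sum was 6.40, 4.32 and 22.2 CPM in PRR RVLM-Null DOCA-salt libraries 1 to 3 and 25.0, 73.5, 134 and 27.9 CPM in WT DOCA-salt libraries. It was 42.1, 3.64, 30.9 and 55.4 CPM in PRR RVLM-Null baseline libraries and 6.01, 19.4, 12.1 and 33.4 CPM in WT baseline libraries. The 2 DOCA-salt groups did not overlap, while the 2 WT groups did. Within PRR RVLM-Null DOCA-salt the library labelled replicate 3 was highest, as it was for all members but Nts and Adcyap1. The 7 genes had a median log2 difference of 2.18 in WT DOCA-salt against WT baseline and of -2.88 in PRR RVLM-Null DOCA-salt against WT DOCA-salt libraries. By edgeR 0 of the 7 were called in any of the 5 comparisons. All 7 had an unadjusted p under 0.05 in the 2 just given and in the interaction. The shares of all genes there were 28.1%, 14.4% and 16.8%. In the other 2 comparisons 0 of the 7 did. The part of punch position in the peptide results was not tested.

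**Figure D4:**
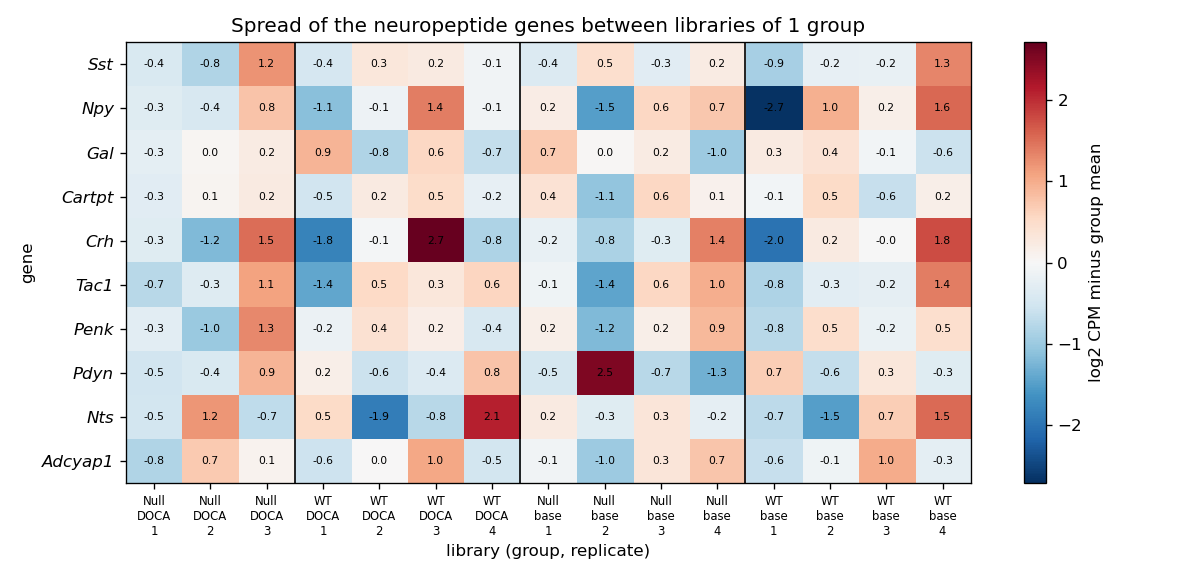
Log2 CPM of the 10 genes (rows) in each of the 15 libraries (columns) minus the mean of the library's group, from blue (below) to red (above), with black lines between groups and the value in each cell. The library labelled replicate 3 of PRR RVLM-Null DOCA-salt is above its group mean for 9 of 10 genes (all but Nts), and Crh in WT DOCA-salt replicate 3 and Pdyn in PRR RVLM-Null baseline replicate 2 are the strongest reds.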

How the data were processed

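RVLM RNA was sequenced by the authors from 15 samples (TRIzol, a low-input stranded SMART-seq kit, NovaSeq, paired ends, STAR within MAPR-Seq, Gencode vM23 on GRCm38.p6, FastQC). The program that counted reads is not given in the sources used here. The deposited count table holds raw read counts per gene, not normalized, beside a gene length given by the authors. The authors' own comparison tables (log2 fold changes, p-values) were not used. For the DOCA-salt groups the paper's methods give 3 WT and 4 PRR RVLM-Null samples. The labels give the reverse, 4 WT and 3 PRR RVLM-Null, and were followed.

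Counts were tested with edgeR 4.0.16 in R 4.3.3 (TMM, quasi-likelihood, 1 term per group, all 15 libraries), with Benjamini-Hochberg adjustment over 14852 protein-coding genes with over 1 CPM in at least 1 library. Genes were called at an adjusted p up to 0.05 and a difference of 2-fold or more. Log2 CPM used a prior count of 0.5. Named genes were the members, up to 4 called genes per list, and the 3 tested genes most like each member. The members and lists were chosen with earlier results of these data known. Alternatives used DESeq2 1.42.0, limma 3.58.1, other filters and scalings, a sex term, a replicate block, and each library left out. One alternative, without the library labelled replicate 3 of PRR RVLM-Null DOCA-salt and with a sex term, was added after seeing the data. The script was tested on simulated data. No 2 libraries agreed within sampling noise (lowest chi-square per degree of freedom 5.59). Library totals were 19053970 to 30504796.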

Additional observations from a re-analysis of the deposited data

Results flagged for a closer look

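In groups of 4 libraries, 5 of 30 group values of the members held 1 library far from the other 3, by Dixon's test at the 95% level. Chance flags about 1 in 20 groups of independent, normally distributed values. These values are CPM on a linear scale and the members share libraries, so that rate may not hold here. Crh measured 77.6 CPM in WT DOCA-salt replicate 3, where the next library had 11.4 CPM, and 13.7 CPM in PRR RVLM-Null baseline replicate 4, where the next had 4.64 CPM. WT baseline replicate 4 stood apart for Sst (71.0 CPM, next 24.7 CPM) and for Tac1 (15.1 CPM, next 4.87 CPM). Pdyn measured 20.4 CPM in PRR RVLM-Null baseline replicate 2, where the next library had 2.54 CPM. That library had a female pattern. WT DOCA-salt replicate 3, WT baseline replicate 4 and PRR RVLM-Null baseline replicate 4 had a male pattern.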

How the results depend on the processing

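Sst and Cartpt were called higher in WT DOCA-salt than in WT baseline libraries under all 26 alternatives (adjusted p at most 0.0231 and 0.0169). Leaving out 1 library at a time, that comparison called 2 to 7 members, PRR RVLM-Null DOCA-salt against PRR RVLM-Null baseline 0 to 2, PRR RVLM-Null against WT under DOCA-salt 0 to 2, baseline 0 to 0 and the interaction 0 to 3, where the full fits called 6, 1, 0, 0 and 0. In the PRR RVLM-Null response DESeq2 called 2, limma voom 0 and the 2 groups alone 0. Under DOCA-salt, DESeq2 called 3 and no filter 1. In the interaction DESeq2 called 3, limma voom 1 and no filter 1. The alternative chosen after seeing the data called 3, 5 and 4 in these 3 comparisons. Over all genes, it and the other alternatives that keep every library or change the method called 46 to 959, 0 to 227 and 44 to 406 there. Member counts of these alternatives were not set against the total of the same fit. Replicate numbers did not pair the libraries (8 of 21 same-number pairs correlated above 0.1). The replicate block gave 2 calls in the PRR RVLM-Null response, 1 in the interaction and 7 in WT mice (Tac1 joined). In WT mice limma voom called 5, without Crh (adjusted p = 0.0875), and the 2 groups alone 4, without Npy (adjusted p = 0.0621) and Crh (adjusted p = 0.0535), while DESeq2 called 6. Over all genes, the full fits called 323, 236, 1, 0 and 49, against 195 to 444, 70 to 337, 0 to 75, 0 to 0 and 0 to 207 with 1 library left out and 298 to 1723, 46 to 959, 0 to 227, 0 to 0 and 44 to 406 under the other alternatives.

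Of 1290 single-gene values, 1195 kept direction and call, 30 lost and 39 gained a call, and 26 reversed, 6 of them outside the fits that leave out a library. Pdyn in the PRR RVLM-Null response was 0.49 and in the interaction 0.48, and Gal in the interaction 0.45, by limma voom. Adcyap1 at baseline was -0.00028 with a sex term. With the alternative chosen afterwards Adcyap1 was -0.065 and Npy in the PRR RVLM-Null response -0.30. With libraries left out, the ranges were -0.15 to 0.43 for Pdyn in WT mice, -1.28 to 1.05 for Pdyn, -1.03 to 0.19 for Sst and -1.21 to 0.10 for Penk in the PRR RVLM-Null response, and -0.030 to 1.95 for Nts under DOCA-salt. At baseline they were -0.11 to 1.92 for Pdyn, -0.40 to 0.049 for Cartpt and -0.0072 to 0.73 for Adcyap1, and in the interaction -0.24 to 0.34 for Gal and -1.45 to 0.86 for Pdyn. The cause was not tested.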
